A study of Mus musculus with 43 samples.

Results

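Of 43 single cells taken from the lateral nucleus accumbens (NAcLat) of mice, 6 carried the transcripts of microglia, the resident macrophages of the brain, beside neuronal transcripts. A cell was counted as positive when at least 4 of 7 microglial markers (*Cx3cr1*, *C1qa*, *C1qb*, *C1qc*, *Csf1r*, *P2ry12* and *Tmem119*) stood above 15 CPM, where CPM is a gene's count over the total of its cell, times 1000000. The remaining 37 cells are called other cells. Each cell is a neuron that projects to the ventral tegmental area (VTA), found by fluorescent beads injected into the VTA and transported back along the axon, and its cytosol was drawn into the patch pipette used to record from it in a brain slice. The 23 REG cells came from young adult C57BL/6J mice of both sexes on regular chow, and the 20 HFD cells from mice that had regular and high-fat chow freely available for weeks. No transgene or allele is given in the labels for either group. The labels name no mouse for any cell, and the cells were chosen by their own expression, so all differences below are descriptions of these cells with no test. Cells are named here by diet and by a replicate number given in the order of the records.

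Microglia tile the brain with fine processes that touch neurons and synapses. They depend on the receptor encoded by *Csf1r*, which binds CSF1 and IL-34, and they sense neuronal fractalkine (*Cx3cl1*) through *Cx3cr1* and nucleotides through *P2ry12*. *C1qa*, *C1qb* and *C1qc* encode the chains of C1q, the first component of complement, which tags synapses and debris, and *Tmem119* encodes a membrane protein used to tell microglia from other macrophages. Many genes of this lineage are bound by PU.1, the factor encoded by *Spi1*, whose core site reads GAGGAA.

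The stretches below show the upstream sequence of the marker *C1qb* and of 5 genes described below whose log2 ratio was at least 2. They were picked because a GAGGAA, or TTCCTC where it lies on the opposite strand, stands within the 100 bases before the start site in RefSeq (build GRCm38.p6), and that motif is in capitals.
C1qb (chr4:136886201-136886300, minus strand): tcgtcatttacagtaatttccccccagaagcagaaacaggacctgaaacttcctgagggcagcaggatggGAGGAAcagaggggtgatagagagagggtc
Trem2 (chr17:48346301-48346400, plus strand): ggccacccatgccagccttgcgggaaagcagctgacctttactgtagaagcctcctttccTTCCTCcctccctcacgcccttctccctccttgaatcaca
Aif1 (chr17:35176053-35176152, minus strand): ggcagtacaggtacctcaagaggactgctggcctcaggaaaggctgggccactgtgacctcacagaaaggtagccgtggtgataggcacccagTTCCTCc
Laptm5 (chr4:130913216-130913315, plus strand): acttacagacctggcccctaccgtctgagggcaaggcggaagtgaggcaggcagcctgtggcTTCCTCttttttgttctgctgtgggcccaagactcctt
Ccl3 (chr11:83649379-83649478, minus strand): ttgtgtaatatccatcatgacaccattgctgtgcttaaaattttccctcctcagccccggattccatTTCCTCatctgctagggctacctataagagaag
Il1a (chr2:129309973-129310072, minus strand): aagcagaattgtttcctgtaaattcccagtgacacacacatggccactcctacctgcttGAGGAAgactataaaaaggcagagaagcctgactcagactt

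In *C1qb* the motif began 30 bases before the start site, and in *Trem2* it began 40 bases before it. In windows of 250 bases before and 50 after the start, GAGGAA on either strand was found for 31.3% of 27025 genes. It was found for 29 of the 47 genes with a window (61.7%) in the microglial lists described below, and for 13 of the 32 (40.6%) that recurred in the positive cells. The longer composite element of PU.1 and IRF factors was found for 3.16% of all genes and 4.26% of the listed genes, and TATAAA for 15.7% and 17%. These matches describe letters in a window and are not evidence of binding.

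The positive cells were REG 12 and REG 20 and HFD 4, HFD 7, HFD 16 and HFD 20. Among REG cells they were 2 of 23 (8.70%, exact Clopper-Pearson 95% interval 1.07 to 28.0%). Among HFD cells they were 4 of 20 (20%, 5.73 to 43.7%). These intervals cover counting error only and treat cells as independent, so they do not serve to compare the diets. By the library batch in the labels, 2 of 18 cells of batch 1 and 4 of 25 cells of batch 2 were positive. Among REG cells these were 1 of 13 in batch 1 and 1 of 10 in batch 2, and among HFD cells 1 of 5 and 3 of 15.

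The number of markers per cell ran over a gradient. None stood above 15 CPM in 16 cells, 1 did so in 10 cells, 2 in 5 cells and 3 in 6 cells, whereas 4 were reached by 3 cells, 5 by 2 cells, 6 by HFD 16 alone and all 7 by no cell. Just outside the rule, with 3 markers, were REG 8, REG 18, REG 23, HFD 5, HFD 9 and HFD 18. Of these, HFD 5 held *C1qb* at 417 CPM, *C1qc* at 106 CPM and *C1qa* at 50.8 CPM with no count for *Csf1r*, *Cx3cr1* or *P2ry12*. REG 18 held *Csf1r* at 146 CPM and *C1qc* at 92.4 CPM. Just inside the rule, with 4 markers, REG 20 held *C1qb* at 31.2 CPM, *C1qa* at 23.1 CPM, *P2ry12* at 20.1 CPM and *C1qc* at 17.1 CPM, and its *Csf1r*, at 13.6 CPM, was under the limit. REG 20 was thus the weakest of the positive cells by summed marker level, at 108 CPM. HFD 5, outside the rule, summed to 573 CPM, above HFD 16 (524 CPM) and HFD 20 (348 CPM) as well.

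**Figure D1:**
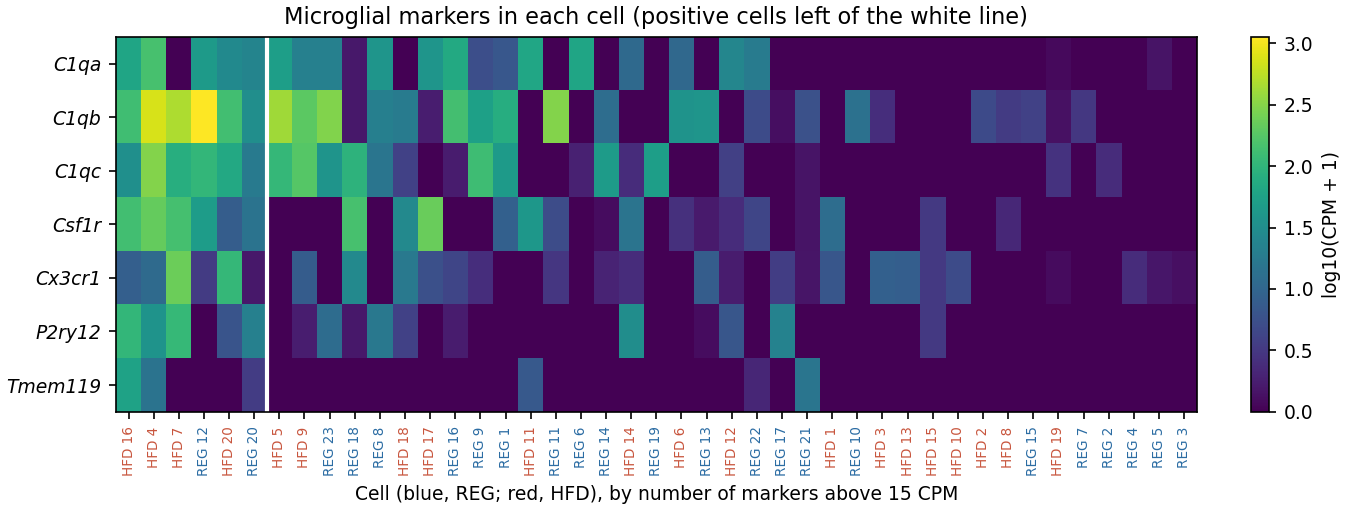
The heat map shows log10(CPM + 1) of the 7 markers (rows) in each of the 43 cells (columns), ordered by the number of markers above 15 CPM, with REG cells in blue and HFD cells in red. The 6 positive cells lie left of the white line, and C1qb is the brightest row, reaching 1128 CPM in REG 12.

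The markers chose the cells, so their levels are given as a description. *C1qb* stood above 15 CPM in every positive cell, at 1128 CPM in REG 12, 739 CPM in HFD 4, 469 CPM in HFD 7, 134 CPM in HFD 20, 131 CPM in HFD 16 and 31.2 CPM in REG 20. *C1qc* also did so, from 17.1 CPM in REG 20 to 309 CPM in HFD 4. *Csf1r* ranged from 6.92 CPM in HFD 20 to 214 CPM in HFD 4 and passed the limit in 4 cells. The homeostatic receptors were more scattered. *P2ry12* stood at 108 CPM in HFD 7 and 103 CPM in HFD 16 but had no count in REG 12, and *Cx3cr1* stood at 233 CPM in HFD 7 and 106 CPM in HFD 20 with 10.2 CPM or less in the other four. *Tmem119* passed the limit in HFD 16 alone, at 56.1 CPM, and had no count in REG 12, HFD 7 and HFD 20.

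Depth overlapped between the groups. Total counts of the positive cells ran from 258089 to 8242050 and those of the other cells from 176961 to 16919600. At the shallowest positive cell, HFD 7, 15 CPM corresponds to 3.87 counts. The positive cells had a median of 12763.5 genes with a count against 9727 in the other cells, and 8399.5 against 7369 once every cell was thinned to 150000 counts. After thinning and applying the rule anew 6 cells were positive, of which 5 were the same cells.

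Apart from the markers, 65 genes known for microglia were followed in 4 lists: surface receptors and adaptors (24 genes), signalling proteins (14), transcription factors (10) and lysosomal and secreted proteins (17). The positive cells held 16 to 38 of these 65 genes above 15 CPM (median 26.5), and the other cells 4 to 22 (median 11). The count was higher in cells with more markers, going from a median of 8 in cells with none to 11.5 with 1, 16 with 2 and 17.5 with 3. The ranges overlapped: REG 12 held 16, while REG 23, with 3 markers, held 22 and HFD 1, with no marker above the limit, held 19. In cells thinned to an equal depth the positive cells held 17 to 36 and the other cells 4 to 21.

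**Figure D2:**
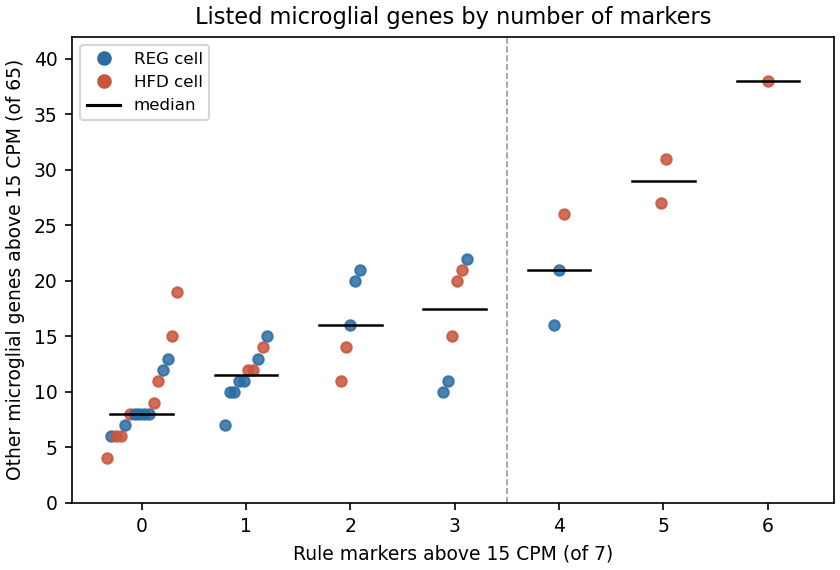
Each point is a cell, placed by how many of the 7 markers (x axis) and how many of the 65 other listed microglial genes (y axis) stood above 15 CPM, with black bars for medians and a dashed line at the limit of the rule. The median rises from 8 genes in cells without a marker to 17.5 in cells with 3, and HFD 16, with 6 markers, holds 38.

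Over all pairs of a listed microglial gene and a cell, 40.8% stood above 15 CPM in the positive cells, 18.5% in the other cells and 14.2% in the cells without a marker. For the 10797 genes that passed a filter on low values (a mean of over 4 CPM and at least 5 cells above 15 CPM, markers aside), the shares were 50.8%, 44.8% and 40.6%. Differences are given below as a log2 ratio, of mean CPM in the positive cells to mean CPM in the other cells. Its median over all filtered genes was −0.11, with 5% of genes below −2.41 and 5% above 1.38. Of the filtered genes, 165 (1.53%) were at least 4-fold higher in the positive cells and 748 (6.93%) at least 4-fold lower. As a difference of mean log2(CPM + 1), which weights high single cells less, 407 were higher by this limit and 38 lower. In 124 of the 165, a single cell gave most of the positive sum. No filtered gene had its lowest positive cell above its highest other cell (0%). The filter let 489 genes pass only because of their levels in the positive cells, so shares of filtered list genes are given as counts and carry no weight of their own.

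Of the microglial lists, 34 of the 65 genes passed the filter, of which 30 had a log2 ratio above 0, where 44.7% of all filtered genes did, and 10 were at least 4-fold higher. Their median log2 ratio was 1.17. With the batches taken apart it was 1.67 in batch 1 and 1.01 in batch 2. Within HFD cells it was 1.45, but within REG cells, where REG 12 and REG 20 were the only positive cells, it was −0.29. In REG 20 the 65 genes summed to 1760 CPM, near the other cells' median of 1726 CPM, although 21 of them stood above 15 CPM. These sums overlapped, with 1760 to 13810 CPM in the positive cells and 234 to 7039 CPM in the other cells. HFD 13, with no marker above the limit, held 6757 CPM.

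The surface list had the highest median log2 ratio of the 4 microglial lists (1.55 over 12 filtered genes, 11 of them above 0), and 33.3% of its pairs stood above 15 CPM against 11.9% in the other cells. *Trem2*, a lipid-sensing receptor of microglia, stood above 15 CPM in every positive cell, at 256 CPM in HFD 4, 222 in REG 12, 113 in HFD 16, 82.5 in HFD 20, 73.6 in HFD 7 and 17.6 in REG 20. In the other cells its median was 2.06 CPM and its highest value 112 CPM, so that HFD 16 and the cells above it exceeded all other cells and REG 20 lay within their range. Its log2 ratio was 3.66, was between 3.33 and 3.89 with each positive cell left out, and was 4.49 within REG cells, 3.0 within HFD cells, 4.53 in batch 1 and 2.85 in batch 2.

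*Tyrobp*, the adaptor through which *Trem2* signals, stood at 718 CPM in REG 12, 629 in HFD 4, 422 in HFD 7, 217 in HFD 16, 81.8 in HFD 20 and 13.1 in REG 20, against a median of 8.80 CPM and a highest value of 503 CPM in the other cells. Only REG 12 and HFD 4 lay above all other cells, and the log2 ratio was 2.66 (3.82 in batch 1 and 1.61 in batch 2). *Laptm5*, a lysosomal membrane protein of blood-derived and microglial cells, reached 200.2 CPM in HFD 16 and 155 CPM in HFD 4 but had no count in REG 12 and HFD 20. Its log2 ratio of 2.84 turned to −0.52 within REG cells. *Selplg*, an adhesion ligand of microglia, was similarly divided, with 213 CPM in HFD 7, 190.4 CPM in HFD 16 and no count in REG 12 (log2 ratio 2.06). *Fcrls*, a Fc receptor-like gene of mouse microglia, passed the limit in 3 positive cells and 3 other cells (log2 ratio 2.71). *Fcgr1* had no count in any positive cell, and *P2ry13* had none in any cell, positive or other.

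Among the signalling proteins 4 of 14 genes passed the filter, all with a log2 ratio above 0 and with a median of 0.86. *Aif1*, which encodes the actin-binding protein IBA1 used to stain microglia, had 352 CPM in REG 12, 189.7 CPM in HFD 4, 39.2 CPM in REG 20, 29.8 CPM in HFD 16, 9.83 CPM in HFD 20 and 3.87 CPM in HFD 7. The 2 highest values were both from batch 1, and the log2 ratio of 2.0 turned to −0.47 within batch 2. *Btk* and *Dock2* had no count in any positive cell.

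Of the transcription factor pairs, 33.3% stood above 15 CPM in the positive cells and 13% in the other cells. Only 3 of the 10 genes passed the filter, with a median log2 ratio of −0.50, and they included *Mef2c*, which neurons also express (−0.79). *Spi1* itself was above 15 CPM in 4 positive cells, at 105 CPM in HFD 7, 43.3 CPM in HFD 20, 29 CPM in HFD 4 and 17.3 CPM in HFD 16, and had no count in REG 12 or REG 20. Among the other cells it passed 15 CPM in 3, none of them a cell without a marker, and reached 175 CPM in one. Its log2 ratio was 2.03 over all cells and −1.17 within REG cells.

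Lysosomal and secreted proteins were the most widely carried, with 69.6% of gene and cell pairs above 15 CPM in the positive cells, 38.0% in the other cells and 29.0% in the cells without a marker. Of the 17 genes 15 passed the filter and 14 had a log2 ratio above 0, with a median of 1.16. *Ctss*, a cysteine protease of the microglial endosome, stood at 384 CPM in both HFD 4 and REG 12, 379.7 in HFD 7, 103 in HFD 16, 66.9 in HFD 20 and 35.7 in REG 20. In the other cells the median was 2.25 CPM and the highest value 284 CPM, so HFD 4, REG 12 and HFD 7 lay above all of them. The log2 ratio was 2.46, with 3.87 in batch 1 and 1.48 in batch 2. *Ctsz*, which encodes another lysosomal protease, ranged from 51.1 CPM in HFD 16 to 329 CPM in HFD 7, against a median of 0.341 CPM in the other cells (log2 ratio 2.37). *Cst3*, a secreted protease inhibitor that astrocytes and neurons also make, passed the limit in every cell. It reached 9318 CPM in HFD 4, with a median of 421 CPM in the other cells. *Ctsb*, which neurons also express, had a log2 ratio of 0.15.

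**Figure D3:**
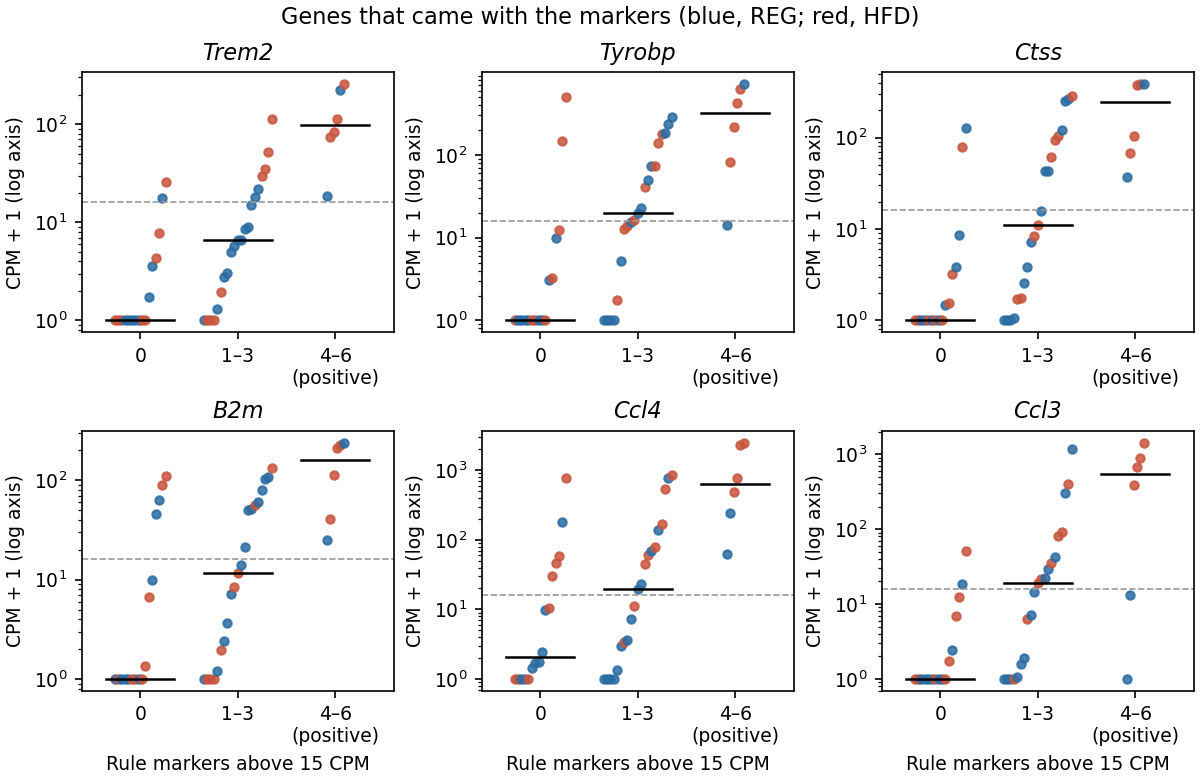
CPM + 1 on a log axis for 6 genes, with cells grouped by how many of the 7 markers stood above 15 CPM (0, 1 to 3, or 4 to 6, the positive cells). Blue points are REG cells, red points HFD cells, black bars medians and the dashed line 15 CPM. The median of Trem2, Tyrobp, Ctss, B2m and Ccl3 is at 0 CPM in cells without a marker, and Trem2, Ctss, B2m and Ccl4 exceed 15 CPM in each positive cell.

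Among the cells with few markers, the mean of *Trem2* was higher with each further marker, while the means of *Ctss* and *Tyrobp* were not. The median of *Ctss* did rise at each step, from 0 CPM without a marker to 2.19 with 1, 7.35 with 2 and 112 with 3. *Trem2* averaged 3.43 CPM in the 16 cells without a marker, 6.17 CPM in those with 1, 15.5 CPM with 2 and 29.9 CPM with 3, and *Ctss* averaged 13.5, 12.4, 62.3 and 145 CPM. *Tyrobp* averaged 42, 12.3, 169 and 64.8 CPM. Summed over cells before dividing by the summed totals, *Trem2* stood at 114 CPM in the positive cells (exact Poisson 95% interval 109 to 119.6) and at 13.1 CPM in the other cells (12.3 to 13.9). For *Ctss* these values were 139 CPM (134 to 145) and 33.2 CPM (32 to 34.6). The intervals cover counting error only and leave out the spread from cell to cell.

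Inflammatory chemokines were among the genes with the highest ratios. Of the cytokines and chemokines, 8 of 16 genes passed the filter, with a median log2 ratio of 2.08. Of these, 7 had a log2 ratio above 0 and 6 were at least 4-fold higher. Among all filtered genes these shares were 44.7% and 1.53%. Within REG cells the ratios of *Ccl3*, *Il1a*, *Tnf* and *Cxcl10* were below 0, and that of *Ccl2* was 0.0062. *Ccl4* and *Ccl3* encode the chemokines MIP-1beta and MIP-1alpha, which attract leukocytes, and lie close together on chromosome 11 (GRCm38, 83662584 to 83664683 and 83647844 to 83649355). *Ccl4* stood at 2491 CPM in HFD 16, 2329 in HFD 7, 766 in HFD 20, 486 in HFD 4, 239.7 in REG 12 and 61.3 in REG 20. The other cells had a median of 8.80 CPM and reached 846 CPM, and the log2 ratio was 3.34 (3.85 in batch 1, 3.09 in batch 2 and 1.37 within REG cells). *Ccl3* stood at 1421 CPM in HFD 16, 876 in HFD 7, 679.8 in HFD 20 and 392 in HFD 4, but at 12.1 CPM in REG 20 and with no count in REG 12. All 4 positive HFD cells were thus high and both positive REG cells low for *Ccl3*.

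With 2 positive REG cells, whether this follows diet was not tested. High chemokine levels also occurred outside the rule: REG 16, which had 2 markers, held *Ccl3* at 1175 CPM and *Ccl4* at 778 CPM, and within REG cells the log2 ratio of *Ccl3* turned from 3.16 to −3.67. *Il1a*, an alarm cytokine, stood at 954 CPM in HFD 16, 496 in HFD 7, 293 in HFD 20 and 52.3 in REG 20, with 0.743 CPM in HFD 4 and no count in REG 12. Another cell reached 2113 CPM, and the log2 ratio of 2.10 turned to −2.10 within REG cells and −5.34 within batch 1. *Tnf* was at 124 CPM in HFD 16, 88.1 in HFD 20 and 19.4 in HFD 7 and had no count in HFD 4, REG 12 and REG 20. *Ccl2*, which attracts monocytes, passed the limit in 4 positive cells and in 4 of the other cells (log2 ratio 2.22). *Il1b* was lower in the mean of the positive cells (log2 ratio −1.94). *Il6* and *Il10* had no count in any cell, positive or other.

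On the scale of TPM, which takes gene length into account, *Ccl4* was the most abundant of the genes compared in the positive cells, with a median of 2726 TPM. *Ccl3* followed at 1394 TPM, *Tyrobp* at 1150.1, *C1qb* at 407, *Ctss* at 242, *Trem2* at 195 and *Il1a* at 167 TPM. In the cells without a marker the median was 4.18 TPM for *Ccl4*, 0.299 TPM for *C1qb* and 0 for the other five. *Cst3* was not among the genes compared. Its mean in the positive cells was 3171 CPM, above the 1062 CPM of *Ccl4*.

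Of the 10 genes of antigen presentation, *B2m* alone stood above 15 CPM in all positive cells, and each of the others in at most 3. *B2m*, the light chain of MHC class I, stood at 237 CPM in REG 12, 226 in HFD 4, 209 in HFD 7, 110.4 in HFD 16, 39.9 in HFD 20 and 24.1 in REG 20, against a median of 5.61 CPM and a highest value of 133 CPM in the other cells (log2 ratio 2.36, with 3.48 in batch 1 and 1.56 in batch 2). The heavy chain gene *H2-K1* stood at 384 CPM in HFD 7 and at 5.78 CPM or less in the other positive cells. Its log2 ratio of 3.79 turned to −1.19 without HFD 7. *H2-D1* was highest in the same cell, at 353 CPM, and its log2 ratio of 2.18 turned to −0.27 within batch 1. Members of this family share sequence, so their separate values are uncertain.

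Genes linked to activated microglia stood apart less, with a median log2 ratio of −0.26 over 8 filtered genes and none at least 4-fold higher. *Apoe*, a lipid carrier that astrocytes also make, had a log2 ratio of 0.19, and *Lpl*, a lipase that neurons also express, −0.55. Complement genes other than C1q had a median log2 ratio of −0.88 over 6 filtered genes, and they were divided. Of these genes, 1 was at least 4-fold higher and 2 were at least 4-fold lower. Among them *Cfp*, which encodes properdin, was lower (−5.56) and above 15 CPM in 10 other cells and no positive cell.

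A search over all filtered genes gave 7 that stood above 15 CPM in at least 4 positive cells and in at most 3 of the 37 other cells (0.0648% of 10797), where 40.7% met the part on positive cells. A gene that met both parts passed the filter only through the positive cells, as 489 genes did. The share of 0.0648% therefore carries no weight of its own. The 7 genes included *Paqr5*, *Bcl2a1a*, *Atg14*, *Coil*, *Spi1* and *St6galnac4*, with log2 ratios of 5.97, 2.80, 2.76, 2.36, 2.03 and 1.16. *Paqr5*, a membrane progestin receptor, stood at 267 CPM in REG 12, 68.5 in HFD 16, 62 in HFD 7 and 27.9 in HFD 20, had no count in HFD 4 and REG 20, and reached 36 CPM among the other cells. *Bcl2a1a*, a survival gene of the BCL2 family, lay between 13.8 CPM in HFD 16 and 65.1 CPM in HFD 7. Its near copies *Bcl2a1b* and *Bcl2a1d* also passed 15 CPM in 4 positive cells each. *Bcl2a1d* did so in no other cell and had a log2 ratio of 6.21 but missed the filter, which asks for 5 cells. Reads may be split among these copies, so their separate levels are uncertain. *Atg14* (autophagy), *Coil* (the Cajal body protein coilin) and *St6galnac4* (a sialyltransferase) are not known as microglial genes. All but *Bcl2a1a* stood above the limit in exactly 4 positive cells, so leaving out any of those cells removes them by construction. The same criteria were met by 2 genes without HFD 4, HFD 16 or HFD 20, 3 without HFD 7, 4 without REG 20 and 5 without REG 12.

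A broader group, chosen after the values were seen, held 43 genes (0.398%) that were at least 4-fold higher and above 15 CPM in at least 4 positive cells. Of these, 14 were on the immune lists, which held 61 of the 10797 filtered genes. These were the 4 microglial lists and those of activated microglia, cytokines and chemokines, antigen presentation and complement other than C1q. Some of the 43 passed the filter only through the positive cells, so these counts carry no weight of their own. For 16 of the 43, a single cell gave most of the positive sum. Those above 15 CPM in all 6 positive cells were *Trem2*, *Ccl4*, *Ctss*, *Ctsz*, *B2m*, *Cst3*, *Selenop* and *Nfkb1*. *Selenop*, a secreted selenium carrier, ranged from 37.7 CPM in REG 20 to 313 CPM in HFD 20, with a median of 4.06 CPM in the other cells (log2 ratio 2.46). *Nfkb1*, a subunit of the inflammatory factor NF-kappaB, ranged from 18.2 CPM in HFD 4 to 84.3 CPM in HFD 16 (log2 ratio 2.29). *Cyba*, a subunit of the phagocyte NADPH oxidase, and *Rgs10*, a regulator of G protein signalling that microglia express, passed the limit in 5 positive cells, with log2 ratios of 2.54 and 2.13.

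The genes that were lowest in the positive cells, among those above 15 CPM in most of the other cells and in at most 1 positive cell, were *Dpp9*, *Nsmce4a*, *Pdap1*, *Nefm* and 4833420G17Rik, with log2 ratios of −3.29, −3.19, −3.17, −3.14 and −2.89. *Nefm*, which encodes the medium neurofilament chain, stood at 51.8 CPM in REG 20 and at 11.6 CPM or less in the other positive cells, against a median of 54.5 CPM in the other cells. *Dpp9*, a peptidase, reached 17.3 CPM in HFD 16 and was at 8.91 CPM or less in the rest, with a median of 22.3 CPM in the other cells. The ratio of *Dpp9* turned to 0.23, and that of *Nsmce4a* to 0.37, when cells with 3 markers were counted as positive.

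**Figure D4:**
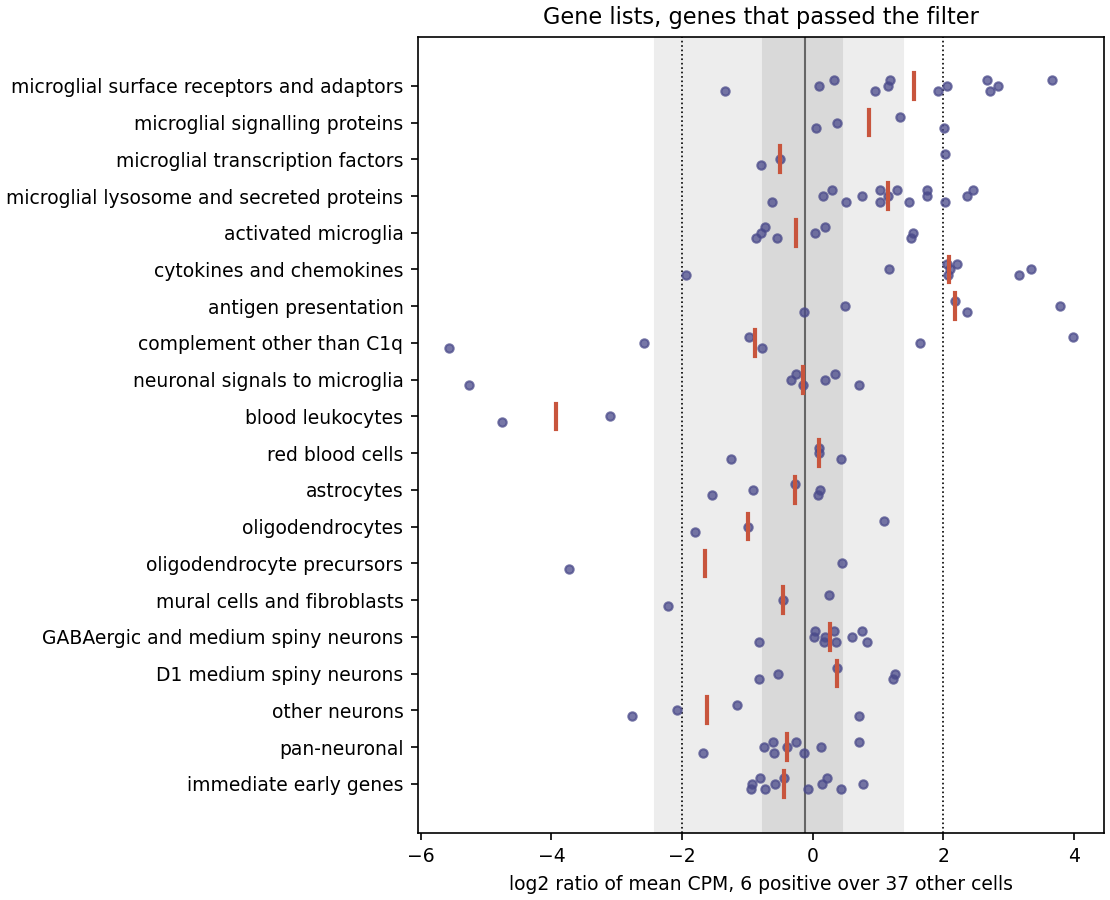
Log2 ratio of mean CPM in the 6 positive over the 37 other cells for each filtered gene (points) of every list with at least 2 such genes, with red bars for list medians. The grey line marks the median of all filtered genes (−0.11), the grey bands their quartiles and their 5th to 95th percentiles, and the dotted lines 4-fold. Cytokines, antigen presentation and microglial surface genes have the highest list medians, and those of GABAergic, D1 and pan-neuronal genes lie between −0.39 and 0.37. The antigen presentation median is over 5 filtered genes and is the ratio of H2-D1 (2.18), which was −0.27 within batch 1.

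The positive cells also carried the genes of medium spiny neurons, the GABAergic projection neurons of the striatum. Of pairs of a cell and a gene from the list of GABAergic and medium spiny neurons, 91.7% stood above 15 CPM in the positive cells and 91.4% in the other cells. For pan-neuronal genes the shares were 88.9% and 88.6%. That list included the neuropeptide gene *Nts*, which had no count in REG 12 and HFD 20. Over 3 neuronal lists with 24 filtered genes the median log2 ratio was 0.08, with 14 genes above 0. It was −0.54 in batch 1, 0.43 in batch 2, −0.44 within REG cells, 0.27 within HFD cells, −0.37 without HFD 20 and 0.52 from summed counts. *Gad1*, which makes GABA, stood at 1424 CPM in HFD 20, 855 in REG 12, 461 in HFD 7, 395 in HFD 4, 378 in REG 20 and 261 in HFD 16, around the other cells' median of 403 CPM. *Ppp1r1b*, which encodes the dopamine signalling protein DARPP-32, ranged from 116 CPM in HFD 7 to 3417 CPM in HFD 20, beyond the other cells' 208 to 2489 CPM at both ends. *Drd1*, the D1 dopamine receptor, ranged from 65.9 CPM in HFD 7 to 842 CPM in HFD 20 (median of the other cells, 197 CPM). *Snap25*, a synaptic vesicle fusion protein, was lowest in HFD 7, at 105 CPM, and between 714 and 3183 CPM in the others.

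HFD 7, the shallowest positive cell, therefore carried the least *Ppp1r1b*, *Drd1* and *Snap25* of the positive cells, together with the most *Cx3cr1* and *P2ry12*. HFD 20, the deepest, carried the most of each of the 3 neuronal genes. *Nts*, the neuropeptide neurotensin, stood at 587 CPM in HFD 4, 260.3 in REG 20, 219.9 in HFD 16 and 38.7 in HFD 7 and had no count in REG 12 and HFD 20, against a median of 203 CPM in the other cells. Its log2 ratio was −1.68. The positive cells were 4 HFD and 2 REG cells, and the other cells 16 HFD and 21 REG cells. The authors report lower *Nts* in HFD than in REG mice, and the part of diet in this ratio was not tested. Genes of D2 medium spiny neurons stood above 15 CPM in 33.3% of pairs in the positive cells and 13% in the other cells, over 5 measured genes, and those of D1 medium spiny neurons in 69.4% and 58.1%. *Drd2* stood above 15 CPM in HFD 4 alone among the positive cells, at 52 CPM. *Penk* (enkephalin) stood at 1254 CPM in HFD 16 and at 45.3 CPM or less in the other positive cells. *Adora2a* (an adenosine receptor) stood at 116 CPM in HFD 16, beside 358 CPM of *Drd1*, and at 19.7 CPM in HFD 4. The log2 ratio of *Penk*, 2.38, turned to −0.80 without that cell.

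**Figure D5:**
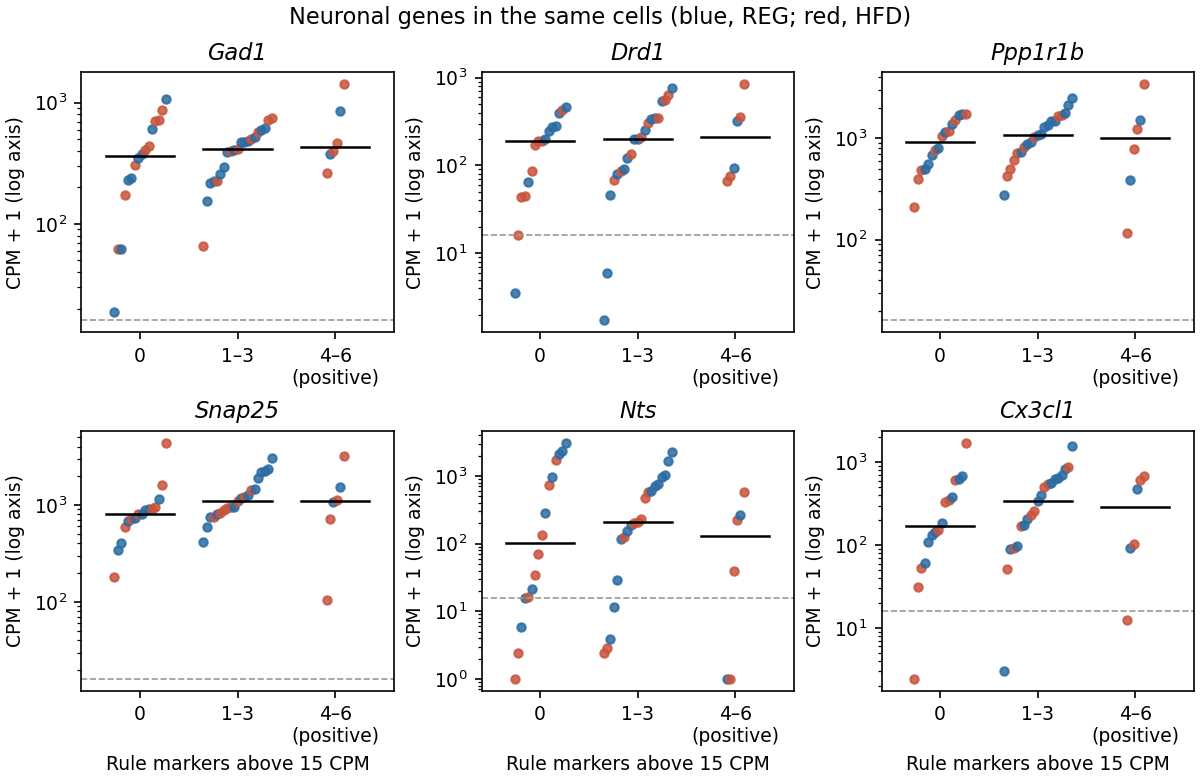
CPM + 1 on a log axis for 6 neuronal genes in cells grouped by the number of markers above 15 CPM, drawn as in the plot of genes that came with the markers. The medians of Gad1, Drd1, Ppp1r1b and Snap25 lie close together in the 3 groups, and Nts has no count in 2 of the 6 positive cells.

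Neuronal signals to microglia were present in both kinds of cell. *Cx3cl1*, the fractalkine ligand of *Cx3cr1*, stood at 687 CPM in HFD 16, 614 in HFD 20, 474 in REG 20, 104 in HFD 4, 90.2 in REG 12 and 11.6 in HFD 7, against a median of 255 CPM in the other cells (log2 ratio −0.25). *Il34*, which encodes a ligand of the *Csf1r* receptor, was lower, at 3.76 CPM or less in every positive cell and above 15 CPM in 14 other cells (log2 ratio −5.26). The immediate early genes of neuronal activity had a median log2 ratio of −0.44.

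Lists of other cell types were compared in the same way. Of 8 markers of macrophages at the border of the brain, none passed the filter, and 2.08% of pairs stood above 15 CPM in the positive cells against 3.38% in the other cells. The 1 pair was *Pf4* in HFD 16, at 53.2 CPM. Their summed level ran from 0 to 66.8 CPM in the positive and from 0 to 259 CPM in the other cells. For blood leukocytes the shares were 5.56% and 4.80%. *Cd79a* had no count in any positive cell, and *Ncr1* had none in any cell, positive or other. The neutrophil genes *S100a8* and *S100a9* reached 1085 and 2226 CPM among the other cells but 29.2 and 20.5 CPM in the positive cells. For astrocytes the shares were 31.7% and 26.5%, with no count for *Gfap* or *Fgfr3* in the positive cells a list median of −0.27 and sums of 71.2 to 958 CPM against 12.3 to 1494 CPM. For oligodendrocytes they were 14.3% and 14.7%, for their precursors 6.67% and 8.11%, and for mural cells and fibroblasts 11.1% and 8.11%. Endothelial genes stood above the limit in 14.6% and 13.5% of pairs, and *Cdh5*, *Ly6c1*, *Tek* and *Slco1a4* had no count in the positive cells. *Pecam1* was above 15 CPM in 36 of the 37 other cells and reached 3325 CPM in HFD 7. Haemoglobin and other red cell genes stood above the limit in 30% of pairs in the positive cells and 18.9% in the other cells. They came mainly from HFD 16, with a sum of 1382 CPM, and REG 20, with 396 CPM, were at 0 in HFD 4, and reached 6546 CPM among the other cells. The part of blood or of other cells in the microglial levels was not tested. From cytosol drawn out of tissue, RNA of a neighbouring microglial cell and RNA of the recorded neuron cannot be told apart in these libraries.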

How the data were processed

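Each sample was 1 bead-labelled NAcLat neuron from which cytosol was aspirated. Per the authors' methods, libraries were made by full-length cDNA amplification and Nextera XT, reads were pseudoaligned with kallisto to an Ensembl GRCm38 transcriptome, and cells with few reads or genes were excluded. The authors deposited estimated counts per gene, not whole in all cases and not normalized, which were used here without rounding since no count model was fitted. The authors also deposited TPM values, which were used for comparisons between genes and as an alternative unit. Library strand was not given in the sources used here, so overlapping genes may share reads. No columns without labels were found and no cells had identical values.

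From the counts, CPM was computed per cell from the total over all genes. A single gene, *Lars2*, took 6.41 to 49.2% of the counts in the positive cells (median 22.3%). In the other cells it took 2.33 to 79.8% (median 26.1%). The CPM of every other gene, and so the limit of 15 CPM, depends on this share. Total counts ran from 176961 to 16919600 per cell, and 15 CPM corresponded to 2.65 counts in the shallowest cell. A gene was kept when it exceeded 15 CPM in at least 5 cells with a mean CPM above 4. Ratios are of mean CPM with no pseudocount. For the 32 filtered genes with no count in any positive cell, 3 counts over the group were assumed, so these ratios are bounds. Groups were taken from the diet label, with 23 REG and 20 HFD cells. Because the labels tie no cell to a mouse, and because cells were selected by expression, no test was run. Intervals are exact (Clopper-Pearson or Poisson, 95%) and cover counting error only. The Clopper-Pearson intervals also treat cells as independent, although cells of the same mouse are not. Replicate numbers follow the order of the records.

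The members, the 23 gene lists (243 genes, 242 measured) and the limits were chosen with earlier results of these data known. Named genes were the 7 markers, the genes above 15 CPM in at least 4 positive and at most 10% of other cells, the 5 lowest genes, and members of the lists. Some genes that this rule names are not reported here. *Selenop*, *Nfkb1*, *Cyba*, *Rgs10*, *Bcl2a1b*, *Bcl2a1d*, *Id2*, *Il17ra* and *Phc2* were named after their values were seen. Values were computed in Python 3.11.15 with pandas 2.3.3, numpy 2.4.6 and scipy 1.17.1, and alternative size factors in edgeR 4.0.16 and DESeq2 1.42.0, and scripts were tested on simulated data. Coordinates of genes are from GENCODE on GRCm38 and promoters from RefSeq on GRCm38.p6.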

Additional observations from a re-analysis of the deposited data

Results flagged for a closer look

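Among the 6 positive cells, 68 measures were examined for a single cell far from the rest, by whether its gap to the nearest cell exceeded 0.625 of the range (Dixon). Of these 16 did so. Chance gives about 1 in 20 for normally distributed values, but CPM are skewed towards high values and the rate for such data was not computed. The measures are not independent because lists contain the genes. No cause was tested.

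HFD 16 stood apart for the summed CPM of D2 medium spiny neuron genes (1400, of which *Penk* gave 1254 CPM), immediate early genes (3955), red blood cell genes (1382), oligodendrocyte genes (387) and leukocyte genes (50.6), and for *Nfkb1* (84.3 CPM) and *Tmem119* (56.1 CPM). HFD 7 stood apart for the summed CPM of endothelial genes (3328.5, of which *Pecam1* gave 3325 CPM), astrocyte genes (958) and antigen presentation genes (953), and for *H2-K1* (384 CPM). HFD 4 stood apart for *C1qc* (309 CPM), REG 12 for *Paqr5* (267 CPM) and REG 20 for *Nefm* (51.8 CPM).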

How the results depend on the processing

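No paired analysis was possible because neither mice nor pairs of cells are given in the labels. Microglial genes kept a median log2 ratio between 0.84 and 1.82 in the alternatives run, apart from REG cells only (−0.29, main value 1.17); leaving out each positive cell gave 0.84 to 1.39. The number of positive cells went from 6 to 12 with at least 3 markers and to 3 with at least 5. It was 8 at 10 CPM, 4 at 30 CPM, 7 with TPM and 8 without *Lars2* in the totals. The 165 genes at least 4-fold higher became 3894 without a filter, 51 with 15 CPM in at least 10 cells, 412 in batch 1, 480 in batch 2, 381 in REG cells, 616 in HFD cells, 588 against cells without a marker and 469 from summed counts. As a difference of mean log2(CPM + 1), 407 genes were higher and 38 lower, against 165 and 748. The 7 genes above 15 CPM in most positive and few other cells became 0 with the filter of 10 cells, 3 in batch 2, 2 in HFD cells, 149 with at least 3 markers, 31 against cells without a marker, and 2 to 5 with 1 positive cell left out. That count was not run for batch 1, REG cells or at least 5 markers, which leave under 4 positive cells.

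Of 56 named genes past 4-fold, the 7 markers among them, 34 kept their sign in all 21 settings. In all of these *C1qb*, *P2ry12*, *Paqr5*, *Trem2* and *Il34* stayed past 4-fold. *C1qb* and *P2ry12* are markers that chose the cells, so their high ratios follow from the rule and carry no weight. These settings were applied to single genes after seeing the data. The cause of the reversals was not tested. Over all cells the ratio was 2.06 for *Cxcl10*, 2.31 for *Bcl2a1b*, 2.18 for *Id2*, 2.62 for *Il17ra*, 2.44 for *Phc2*, −3.72 for *Cspg4*, −2.08 for *Pvalb*, −3.10 for *S100a8* and −4.76 for *S100a9*. In REG cells the log2 ratio turned to −0.57 for *Cx3cr1*, −1.17 for *Spi1*, −0.52 for *Laptm5*, −2.10 for *Il1a*, −2.25 for *Tnf*, −3.67 for *Ccl3*, −2.62 for *Cxcl10*, −2.05 for *H2-K1*, −1.25 for *Penk*, −0.47 for *Rgs10*, −2.30 for *Bcl2a1b*, −2.64 for *Id2* and −2.28 for *Il17ra*. In batch 1 it turned to −5.34 for *Il1a*, −2.61 for *Tnf*, −4.02 for *H2-K1*, −0.27 for *H2-D1*, −0.56 for *Penk*, −0.69 for *Id2* and −1.34 for *Il17ra*, and in batch 2 to −0.47 for *Aif1*. With 1 positive cell left out it ran from −0.76 (without HFD 16) to 2.33 for *Cxcl10*, from −0.80 (without HFD 16) to 2.65 for *Penk* and from −1.19 (without HFD 7) to 4.05 for *H2-K1*. With at least 3 markers it turned to 0.23 for *Dpp9*, 0.37 for *Nsmce4a*, 0.77 for *Cspg4* and 0.00655 for *Pvalb*, and with at least 5 to −3.0 for *Phc2*. Summed counts gave −0.13 for *H2-D1*, and log2(CPM + 1) gave 0.36 for *S100a8* and 0.15 for *S100a9*.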
